A study of Arabidopsis thaliana with 6 samples.

Results

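The genes described here are those whose transcripts were lower after 6 h of anoxia than after 6 h in air in each of 2 experiments on dark-grown Arabidopsis thaliana seedlings, and which 90 mM sucrose did not raise again in both. They are 244 probe sets (sets of short oligonucleotides on an Affymetrix array, each reporting a transcript) out of 15922 that passed a filter on low values and 22746 on the array without its controls. Each value was taken as log2(signal + 16) and centred on the median of its array, so a level of 0 is the array median. Falls of dim genes from air to anoxia are understated, and their changes with sucrose are shifted, as given below. A member had anoxia minus air below -1 on this log2 scale in experiment 1 and in experiment 2. In all 259 probe sets did, which is 1.63% of those tested. Of these, 9 were left out because anoxia with sucrose exceeded anoxia by more than 1 in both experiments, and 6 more because their symbols start with EXP, XTH, IAA or RALFL (expansins, xyloglucan endotransglucosylases, auxin response repressors and peptide signals). Air and anoxia values therefore chose the members, and sucrose values removed some of them, so the changes below are descriptions with no test.

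The 3 groups were seedlings under anoxia with 90 mM sucrose, seedlings under anoxia without sucrose, and seedlings kept in air without sucrose, each for 6 h. All belonged to the ecotype Columbia glabra and were dark-grown at 23 °C and aged 4 days, on a mineral medium to which no sucrose was added. Each group had 2 arrays, from experiments 1 and 2, and each array carried the RNA of 4 pooled cultures of whole seedlings. In such bulk RNA fewer cells of a type and less RNA per cell cannot be told apart.

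Seedlings growing in the dark elongate their hypocotyl by cell expansion. The wall is loosened, new matrix polysaccharides such as xyloglucan are laid down, membrane and wall material arrives by vesicles, and auxin and brassinosteroid drive the process. Without oxygen respiration stops and ATP comes from fermentation of sugar, so that growth and costly synthesis are typically turned down while sugar supply limits survival.

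Arrays differed in brightness and in a sign of RNA quality. Median signal ran from 21.2 to 50.6, and the ratio of 3' to 5' actin signal, which grows as RNA degrades, was 21.6 on the sucrose array of experiment 1, against 1.7 to 4.24 on the other 5 arrays. Of 44 listed markers of organs, cell types and reference genes, 8 had a probe set that could be matched and 6 passed the filter (EXPA7 of root hairs and MUTE of stomata were too dim). Of the 8, 0 differed between anoxia and air by more than 1 in the same direction in both experiments. Of the 15922 probe sets tested 259 were lower and 172 higher by this measure. Few of any 8 would be, so nothing is read from the 0. PORB, a chlorophyll synthesis enzyme listed for etiolated plastids, stood at 3.86 and 5.72 under anoxia with sucrose, 5.04 and 5.79 under anoxia and 5.51 and 5.02 in air. LHCB4.1, listed for green plastids, stood at 5.35 and 5.99, 5.54 and 5.95, and 6.37 and 5.63 in the same order. Both were well above the array median on all 6 arrays, so these markers do not tell dark-grown from green tissue. Summed over the 8 markers, signal divided by the array median was 99.6 and 156 under anoxia with sucrose, 110 and 178 under anoxia, and 177 and 127 in air. Nearly all of this sum came from LHCB4.1 and PORB, with signals of 5113.5 and 2812.3 in air in experiment 1. AUR1, of dividing cells, came next with 111.6 there, so the sum says little of the other markers. The part of tissue make-up and RNA quality in the results was not tested.

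The members were well expressed in air. Their median level there was 2.19 in experiment 1 and 2.16 in experiment 2, against 0.83 and 0.72 for all probe sets tested, and 239 of 244 lay above the array median on both air arrays. Most of all probe sets tested lay above it on each air array too, with lower quartiles of -0.14 and -0.11. A gene near the floor in air cannot meet the rule, which itself favours bright genes. Under anoxia the members' median level was 0.34 and 0.56. Anoxia minus air had a median of -1.70 in experiment 1 and -1.47 in experiment 2, against 0.10 and 0.03 over all probe sets tested, and was more negative in experiment 1 for 165 of 244 members. That last count was not made over all probe sets, so nothing is read from it. The drop exceeded 2 in both experiments in 30 members, and in 67 it was under 1.5 in both. The opposite pattern, above 1 in both experiments, was met by 172 probe sets. On 53 members at least 1 anoxia array read a signal below 16, and on 21 both did, so that the differences of these members depend on the constant added before taking log2.

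**Figure D1:**
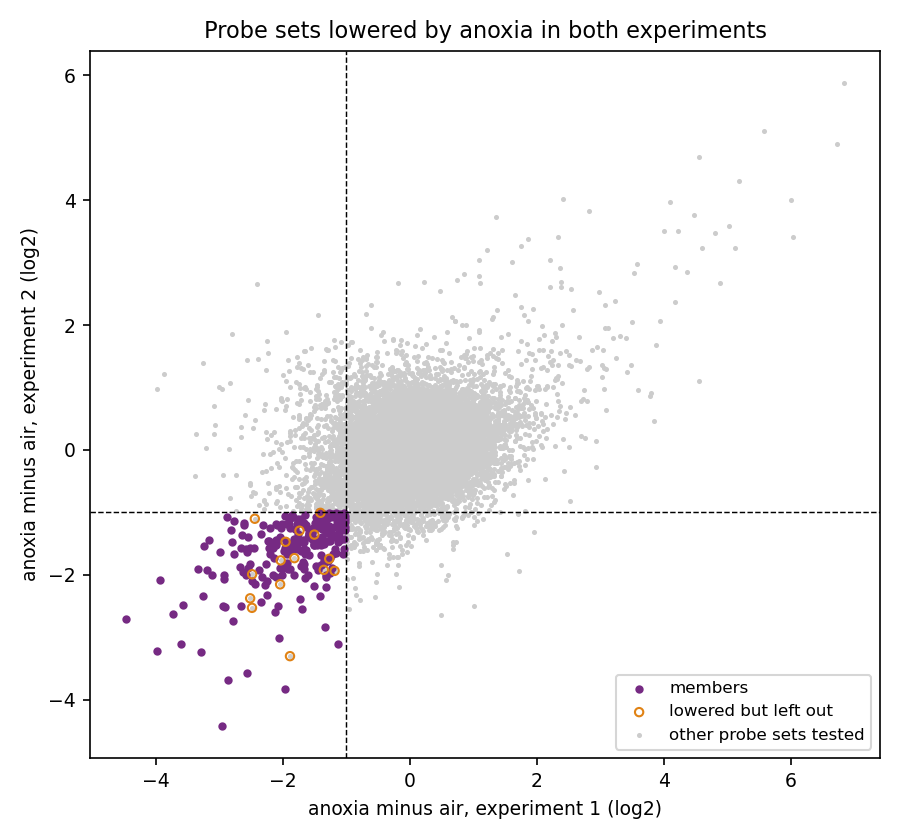
Anoxia minus air on the log2 scale in experiment 1 (horizontal axis) and experiment 2 (vertical axis), 1 point per probe set. Purple points are the 244 members, open orange circles the 15 probe sets below -1 in both experiments that were left out, and grey points the other probe sets tested. Dashed lines mark the threshold of -1.

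The threshold cuts through a continuous cloud. Just inside it lay AT2G41770 with values of -1.44 and -1.002 in experiments 1 and 2, probe set 258060_at with -1.16 and -1.006, and AT1G10740 with -1.28 and -1.01. Just outside it lay probe set 245084_at with -0.999 and -1.08, AT4G34560 with -0.998 and -1.03, and AT3G07010 with -0.997 and -2.06.

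Names limited what can be said of function. Of the 244 members, 116 stood for 1 gene, 8 for several and 120 had no gene in the platform annotation. A gene name, as a symbol or a synonym, was given for 19, and the other 97 with 1 gene carry only a locus number in the tables used, which name no product for them. Names are as scarce on the whole array, where 1222 of 8731 tested probe sets with 1 gene had a symbol of their own. The 19 named members are described first, by role. Those outside the rule for named genes (DRT100, PRA1.B6, P1R1, EXLA1, UPB1 and TRM28) were added after their values were seen, because they have a name.

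Enzymes that build wall polysaccharides were among them. CSLC04, a glucan synthase of the xyloglucan backbone, stood at 0.87 and 1.83 under anoxia with sucrose, 1.62 and 1.74 under anoxia, and 3.54 and 3.23 in air, for experiments 1 and 2. Both air arrays were above all 4 others, and anoxia minus air was -1.70 ± 0.50 (limma's SE). CSLA03, of the mannan synthase family, stood at -0.16 and 0.35 under anoxia with sucrose, 0.18 and 0.43 under anoxia, and 1.45 and 1.67 in air. Its groups with and without sucrose overlapped, and both lay below air. AT1G08280, whose synonym GALT29A denotes a galactosyltransferase acting on the sugar chains of arabinogalactan proteins, was dim: its level was -1.12 and -1.39 under anoxia with sucrose, -0.998 and -1.10 under anoxia, and 0.11 and 0.35 in air. Its anoxia signals were 14.7 and 6.4, so its change of -1.28 is understated.

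The other tested relatives of CSLC04 moved less. In this family, given for comparison, anoxia minus air was -0.87 ± 0.52 for CSLC5, -0.54 ± 0.34 for ATCSLC08, -0.25 ± 0.36 for CSLC12 and -0.12 ± 0.41 for CSLC6, so all 5 tested CSLC genes lay below 0 and CSLC04 alone met the rule. CSLD2, a cellulose synthase-like gene known from root hair growth, was at -0.02 ± 0.37. The keyword list for wall synthesis and wall proteins held 48 tested genes with a median of -0.21, against 0.08 over all probe sets tested. In the limma fit to the whole array, adjusted p under 0.05, 0 of these 48 passed in either direction, where 0.126% of all probe sets were called lower. With the experiment number as a block 4 passed as lower and 0 as higher, where the background was 1.58%.

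Genes that loosen or remodel the wall formed another set. EXGT-A3 (XTH27), a xyloglucan endotransglucosylase that cuts and rejoins xyloglucan chains and stayed in because of its older symbol, stood at 1.40 and 1.71 under anoxia with sucrose, 2.06 and 2.15 under anoxia, and 3.73 on each array in air. Its 3 groups did not overlap and ran lowest with sucrose. EXLA1 and EXLA2 are expansin-like genes, relatives of the expansins that loosen walls. EXLA1 stood at 3.02 and 1.97 under anoxia with sucrose, 2.06 and 2.16 under anoxia, and 3.81 and 3.50 in air. EXLA2 stood at 0.36 and -0.19 under anoxia with sucrose, 0.61 and 0.62 under anoxia, and 2.72 and 1.82 in air. Thus the sucrose arrays were both below the anoxia arrays for EXLA2, but on either side of them for EXLA1. Both other tested genes of this family lay lower under anoxia as well, EXLA3 by -0.58 ± 0.55 and EXLB1 by -0.63 ± 0.43, short of the rule. EXPA4, EXPB1, XTH19 and XTH33, left out by symbol and named after their values were seen, had anoxia minus air of -1.51, -1.52, -1.43 and -1.72.

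SKU5 encodes a surface glycoprotein related to copper oxidases that steers directional root growth. It stood at 1.70 and 3.96 under anoxia with sucrose, 2.43 and 3.78 under anoxia, and 4.53 and 5.31 in air. The arrays of experiment 1 read lower in each group, and on the sucrose array with the high actin ratio it was lowest. Its relative sks16 was at -0.08 ± 0.29, anoxia minus air.

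THE1 is a receptor-like kinase that monitors the wall and restrains elongation when cellulose is lacking. It stood at 0.50 and 1.42 under anoxia with sucrose, 0.95 and 1.06 under anoxia, and 2.73 and 2.65 in air, a difference from air of -1.69 ± 0.45 that was nearly equal in both experiments (-1.78 and -1.59). FER, a related receptor kinase needed for cell expansion, was not a member: anoxia minus air was -1.18 in experiment 1 and -0.71 in experiment 2.

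Genes tied to brassinosteroid and auxin were present on both the inducible and the repressible side. EXO (EXORDIUM), a secreted protein induced by brassinosteroid that promotes cell expansion, stood at -0.19 and 2.07 under anoxia with sucrose, 0.63 and 3.37 under anoxia, and 3.55 and 5.38 in air. Within each experiment sucrose was lowest and air highest, but the experiments differed so much that the groups overlapped for anoxia with and without sucrose. BRH1, a RING finger gene named for its response to brassinosteroid, which lowers it, stood at 0.43 and 1.90 under anoxia with sucrose, 0.27 and 1.62 under anoxia, and 2.53 and 3.46 in air. HAT2, a homeodomain leucine zipper factor quickly induced by auxin, stood at 1.61 and 1.72 under anoxia with sucrose, 1.42 and 1.35 under anoxia, and 3.28 and 2.95 in air. For HAT2 the sucrose arrays were above both anoxia arrays by a small margin and far below air. Of the keyword list for auxin transport, response and metabolism, 7 genes were tested and 0 were members. Over all tested probe sets with a symbol 18 of 1222 were. LBD29 of that list had anoxia minus air of -1.90 but was left out by the sucrose rule. Genes with IAA symbols could not be members. IAA29, named after its values were seen, had anoxia minus air of -2.45. By limma 1 of the 7 passed as lower and 0 as higher, with or without the block. Of all probe sets 0.126% were called lower without the block and 1.58% with it. No SAUR gene, an auxin-induced growth family, could be matched to a tested probe set by name. Genes of this family may still be among the members known only by locus number or without a gene.

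Transcription factors among the members also included BZIP53, TCP15 and UPB1. BZIP53, of a bZIP group known from energy shortage and seed maturation, stood at 1.32 and 1.70 under anoxia with sucrose, 1.25 and 1.93 under anoxia, and 3.80 and 3.83 in air. Its 2 air arrays were nearly equal, and anoxia minus air was -2.22 ± 0.48. TCP15, of a family that regulates cell proliferation, stood at -0.58 and 1.04 under anoxia with sucrose, 0.12 and 0.78 under anoxia, and 1.15 and 2.37 in air. UPB1 (UPBEAT1), a bHLH factor that sets the balance of division and differentiation in roots through peroxidase genes, stood at 2.37 and -0.18 under anoxia with sucrose, 0.98 and 0.10 under anoxia, and 2.33 and 1.21 in air. UPB1 was thus at its air level on the sucrose array of experiment 1 and below its anoxia level on that of experiment 2, so the experiments disagree on its response to sucrose.

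Of 40 tested genes in the keyword list for transcription factors 2 were members, where 18 of 1222 tested probe sets with a symbol were. The 2 were BZIP53 and TCP15. UPB1 was in no list and HAT2 in that for light and shade, so this list is incomplete and nothing is read from its count. The list's median was 0.08. By limma 0 passed in either direction, and with the block 2 passed as lower and 0 as higher. The background for lower was 0.126% without the block and 1.58% with it.

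Of the other named members, PRA1.B4 and PRA1.B6 belong to the prenylated RAB acceptors, small membrane proteins of vesicle traffic. PRA1.B4 stood at -0.30 and 0.78 under anoxia with sucrose, -1.79 and -0.08 under anoxia, and 1.197 and 1.56 in air. Sucrose exceeded anoxia by 1.49 in experiment 1 and by 0.86 in experiment 2, so this member came close to exclusion, although the 4 arrays without oxygen overlapped. PRA1.B6 stood at 1.16 and 1.23 under anoxia with sucrose, 0.86 and 0.99 under anoxia, and 3.08 and 2.56 in air. TRM28, of a family with a motif that recruits the microtubule regulator TON1, stood at -0.29 and -0.35 under anoxia with sucrose, -0.80 on each array under anoxia, and 0.40 and 0.26 in air. With sucrose it lay between anoxia and air, and its 3 groups did not overlap.

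DRT100, a leucine-rich repeat protein named for a test of DNA damage tolerance in bacteria, was bright. It stood at 2.61 and 3.27 under anoxia with sucrose, 3.12 and 2.82 under anoxia, and 5.13 and 4.82 in air, with anoxia minus air of -2.01 in experiment 1 and nearly the same in experiment 2. The next protein-coding gene on its chromosome in the RefSeq table, AT3G12620, was also a member. This was the 1 such pair of neighbours found among the 113 of 244 members matched to that table. The other members could not be placed. P1R1 stood at 1.55 and 0.97 under anoxia with sucrose, 0.41 and 1.06 under anoxia, and 2.30 and 2.96 in air.

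**Figure D2:**
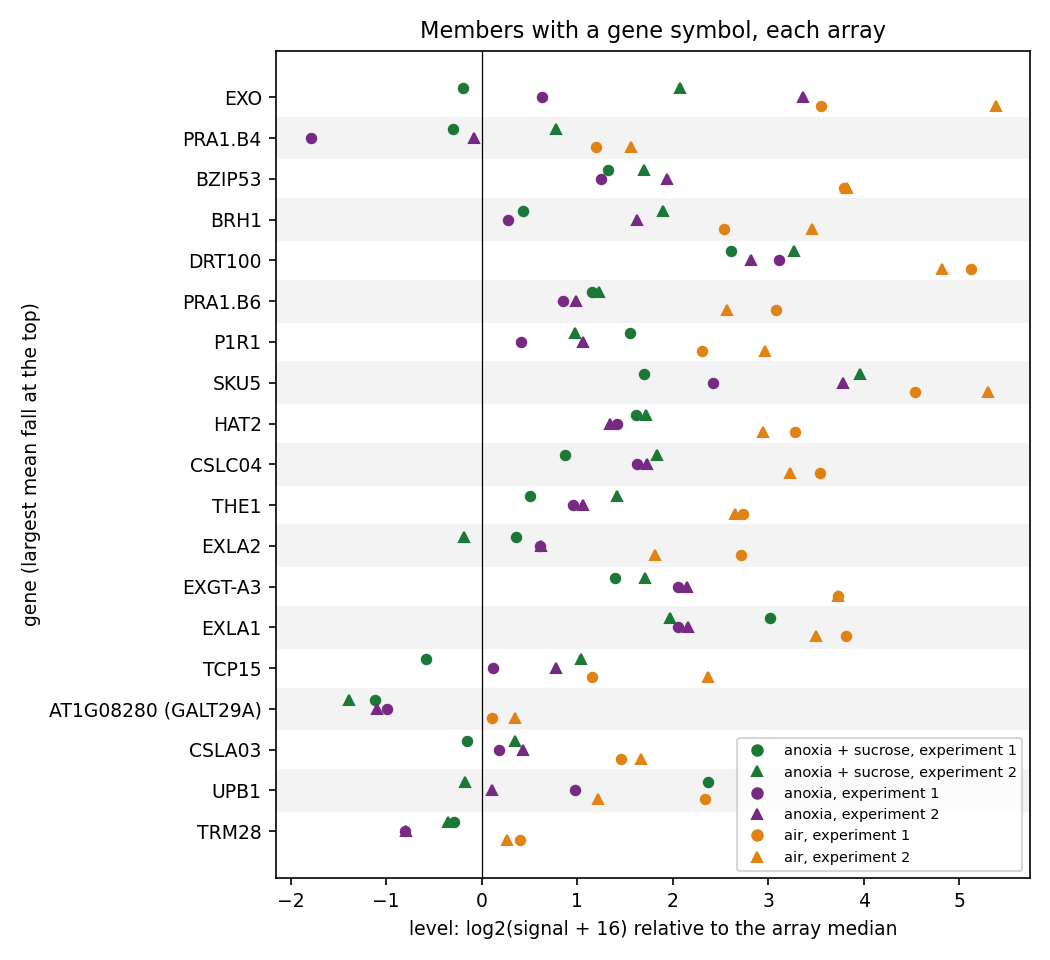
Level of the 19 members with a gene name on each of the 6 arrays, as log2(signal + 16) relative to the array median; circles are experiment 1 and triangles experiment 2. Green points (anoxia with sucrose) overlap the purple ones (anoxia) in most genes and, but for UPB1 in experiment 1, lie left of both orange ones (air).

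Of the 1222 tested probe sets with a symbol 18 were members, so few or none were due in most keyword lists. Several lists of other functions held no member, from which nothing is read. They covered ubiquitin ligases and protein turnover (73 tested genes), the cell cycle, chromatin and cytoskeleton (35), water, ion and nutrient transport (28), defence (14), ribosome and translation (6), pectin enzymes (4) and cuticle and lipids (4). Their medians for anoxia minus air lay between -0.16 and 0.19, and by limma 0 of their genes passed in either direction (with the block, 1 of 73 and 1 of 14 as lower, 0 as higher in any). The list for peroxidases and redox held SKU5 among 36 tested genes, that for hormones other than auxin BRH1 among 10, that for light and shade HAT2 among 4, that for kinases THE1 among 3, and that for secondary metabolism and glycosyl transfer AT1G08280 among 54. In each of these 5 lists limma called 0 genes in either direction, and with the block 1 as lower and 0 as higher. For all the lists in this paragraph the background for lower was 0.126% without the block and 1.58% with it. Since most members have no name, a list without a named member may still hold some of them.

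Members known only by locus number included the lowest differences among those with 1 gene. AT4G25780 stood at -0.60 and -0.28 under anoxia with sucrose, -1.23 and 0.05 under anoxia, and 3.24 and 2.76 in air. Its anoxia minus air was -3.59 with the constant of 16, -4.41 with 1 and -2.50 with 64, as its anoxia signals were only 10.2 and 33.8. AT3G53250 stood at -0.95 and -0.38 under anoxia with sucrose, -1.73 and -0.02 under anoxia, and 2.21 and 2.07 in air. With a signal of 2.5 on the anoxia array of experiment 1, its anoxia minus air was -3.01 with the constant of 16, -4.40 with 1 and -1.85 with 64. AT4G25260 was bright in air, with 4.08 and 4.20, against 1.49 and 1.83 under anoxia with sucrose and 1.29 and 1.46 under anoxia. In all 3 genes each sucrose array stayed more than 2 units below both air arrays.

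Anoxia minus air was -2.62 for AT3G06070, -2.58 for AT2G43860, -2.56 for AT1G49200, -2.50 for AT2G25250 and -2.36 for AT5G08350, with SEs between 0.34 and 0.46. On the linear scale AT2G43860 read 0.5 and 17.3 under anoxia with sucrose, 0.8 and 6.2 under anoxia, and 91.9 and 107.1 in air, so its log2 difference is understated. Across the 97 members with a locus number only, anoxia minus air ran from -3.59 to -1.03 with a median of -1.51, and for the 19 with a name the median was -1.70. The 128 members without a single gene had a median of -1.62. The lowest values among them were -3.69 for probe set 250012_x_at, -3.61 for 259790_s_at and -3.36 for 259773_at.

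Under anoxia with sucrose the members' median level was 0.42 and 0.72, against 0.34 and 0.56 under anoxia and 2.19 and 2.16 in air. Anoxia with sucrose minus anoxia had a median of 0.18 in experiment 1 and 0.20 in experiment 2, where all probe sets tested had -0.05 and 0.07. The lowest level of any probe set tested differed by array: -1.19 and -2.01 under anoxia with sucrose, -1.88 and -1.54 under anoxia. A dim member is thus shifted up in experiment 1 and down in experiment 2, even where both signals are near 0. AT2G43860, with signals of 0.5 with sucrose and 0.8 without in experiment 1, had a difference of 0.69 there. Set against each member's own drop under anoxia, the mean change with sucrose amounted to a median of 8.81%, with 20 of 244 members above 50% and 87 below 0. The anoxia arrays that chose the members enter both parts of this share. The rule also removed probe sets that sucrose raised most, so nothing is read from these counts.

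**Figure D3:**
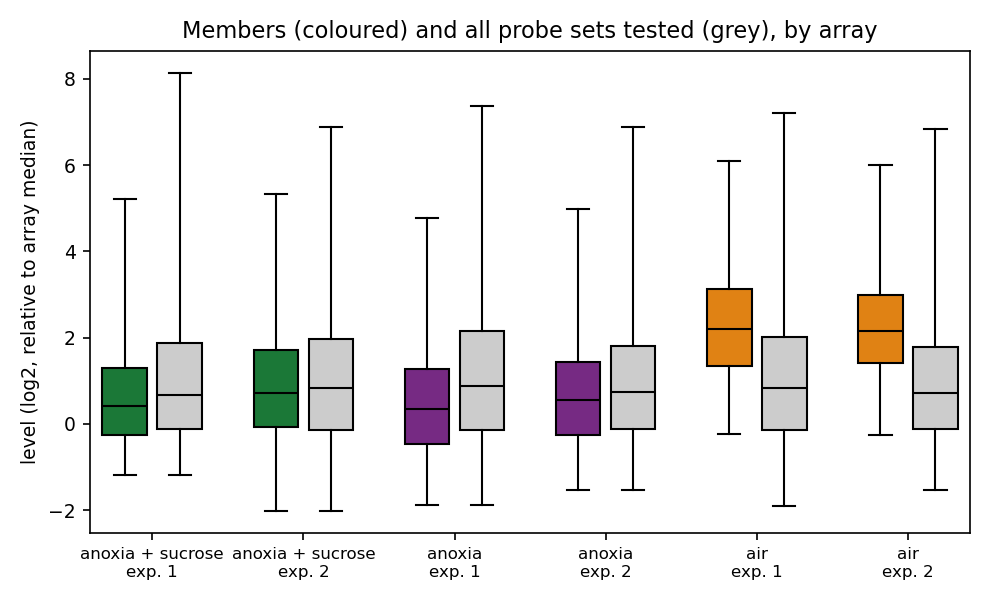
Level relative to the array median on each array for the 244 members (coloured boxes) and for all 15922 probe sets tested (grey boxes). Boxes span the quartiles, the line is the median and whiskers reach the lowest and highest value; members stand above the rest in air only, where the rule asked for high values.

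In 96 members (39.3%) anoxia with sucrose stayed within 0.5 of anoxia in both experiments, against 51.5% of all probe sets tested. It exceeded anoxia by more than 0.5 in both for 26 members (10.7%, against 2.81% of all), and was lower by more than 0.5 in both for 1 member, EXO (0.41%, against 0.961%). Excess by more than 1 in 1 of the 2 experiments, which the rule allowed, was seen in 37 members (15.2%, against 4.1%), 24 of them in experiment 1. Both sucrose arrays lay above both anoxia arrays for 67 members (27.5%, against 9.47%), and below both for 13 (5.33%, against 10.2%). Nothing can be read from these shares about sucrose, because members were picked for low values on the same anoxia arrays from which the change is counted. Dim members are also shifted up in experiment 1 and down in experiment 2 by the unequal lowest levels of the arrays.

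Reading a different experiment from the one that chose gave smaller changes. When probe sets were taken for anoxia minus air below -1 in experiment 1 alone (941, the same symbols left out, the sucrose rule not applied), anoxia with sucrose minus anoxia had a median of 0.19 in experiment 1 but 0.0048 in experiment 2, where all probe sets had 0.07. When they were taken in experiment 2 (613), the median was 0.34 in experiment 2 and 0.05 in experiment 1, where all had -0.05. Anoxia minus air itself, read in the experiment that had not chosen, had a median of -0.49 in experiment 2 and -0.85 in experiment 1. All probe sets tested had medians of 0.03 and 0.10 there. Of the probe sets taken, 68.1% and 84.0% lay below 0, where by those medians most of all probe sets tested lay above 0. Their exact share was not counted. These 2 choices were added after the data were seen.

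By limma over all probe sets, 0 of 15922 passed between anoxia with sucrose and anoxia (161 with an unadjusted p under 0.05), so 0 members did, with a background of 0%. With the experiment number as a block 3 passed, a background of 0.0188%, and again 0 of them were members.

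Among the members with 1 gene, 5 had the highest mean change with sucrose against anoxia. AT1G72230 stood at 1.95 on each array under anoxia with sucrose, 1.12 and 0.32 under anoxia, and 2.52 and 2.17 in air. AT1G32920 stood at 3.63 and 2.80 under anoxia with sucrose, 1.83 and 2.15 under anoxia, and 3.52 and 3.95 in air. AT4G11190 stood at 2.08 and 2.66 under anoxia with sucrose, 1.63 and 0.84 under anoxia, and 3.88 and 2.94 in air. In all 3 both sucrose arrays lay above both anoxia arrays, and for AT1G32920 the sucrose array of experiment 1 exceeded the air array of that experiment.

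AT5G11970 and PRA1.B4 completed these 5, at 1.02 ± 0.55 and 1.18 ± 0.55. The 5 lowest among members with 1 gene were EXO (-1.06 ± 1.01), AT2G44500 (-0.71 ± 0.46), EXGT-A3 (-0.55 ± 0.46), EXLA2 (-0.53 ± 0.43) and AT1G09575 (-0.50 ± 0.35). Members without a single gene lay between these values at both ends, so the order does not hold over all 244.

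**Figure D4:**
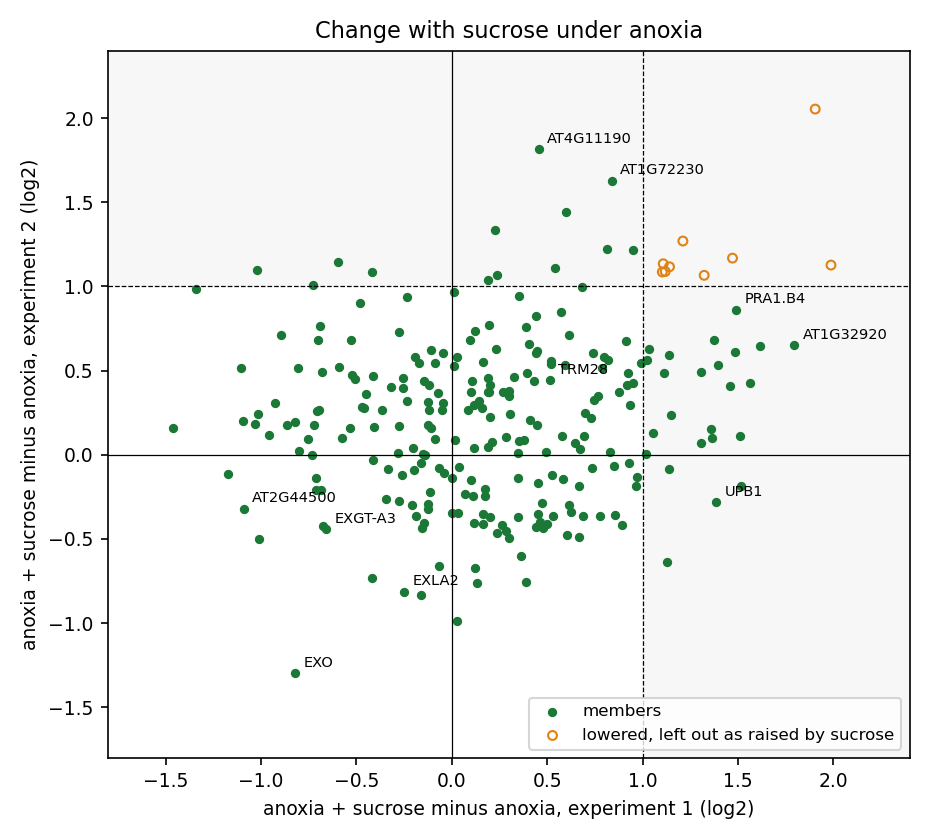
Anoxia with sucrose minus anoxia on the log2 scale in experiment 1 (horizontal) and experiment 2 (vertical) for the 244 members (green) and the 9 lowered probe sets left out as raised by sucrose (open orange circles). Dashed lines mark 1; members fill both sides of 0, EXO is lowest in experiment 2, and the region above 1 in both experiments is empty of members by the rule.

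The 9 probe sets left out by the sucrose rule were not all back at their air level. Anoxia minus air had a median of -1.90 among them, and anoxia with sucrose minus air a median of -0.54. They include LBD29, a factor of lateral root formation, at -0.08 and -0.31 under anoxia with sucrose, -1.18 and -1.40 under anoxia, and 0.85 and 0.37 in air. RALFL33, a peptide signal, stood at 4.30 and 3.28 under anoxia with sucrose, 3.16 and 2.17 under anoxia, and 4.52 and 4.09 in air. AT4G09890 and AT3G57450, known by locus number, were higher with sucrose than under anoxia alone by 1.56 and 1.104, and the other 5 have no single gene. Of all probe sets tested, 48 (0.301%) exceeded anoxia by more than 1 with sucrose in both experiments.

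Against air, members also read low with sucrose, which the rule favoured in advance. Anoxia with sucrose minus air had a median of -1.70 in experiment 1 and -1.33 in experiment 2, against 0.03 and 0.11 over all probe sets tested. It was below -1 in both experiments for 139 members (57%), against 1.65% of all probe sets tested, and below 0 in both for 237. By the medians just given, most of all probe sets tested lay above 0 in each experiment. Both sucrose arrays lay below both air arrays for 225 of 244 members (92.2%, against 14.8% of all), 18 of the 19 named ones among them. Both comparisons count from the same air arrays, which were picked for high values, so the 2 differences are not separate pieces of evidence. The rule also removed the lowered probe sets that sucrose raised by more than 1 in both experiments. The sucrose array of experiment 1 was the one with the high actin ratio. By limma 16 members were lower than air with sucrose, where 0.1% of all probe sets were, and with the experiment number as a block 147, where 1.69% were; as the air arrays chose the members, nothing is read from these counts.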

How the data were processed

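The authors deposited 1 linear intensity per probe set (22810) and array (6). Targets were made by the manufacturer's procedure, per the labels' protocols, and the sources used here do not state how signals were corrected or scaled. After removing 64 controls, each deposited intensity was turned into log2(signal + 16) and centred by array median; the dimmest probe sets, below the 30th percentile of the mean over arrays, were dropped. The number of arrays limits the precision. Groups and experiment numbers come from the sample titles.

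Members, lists and the naming rule were chosen with earlier results of these data known. Keyword lists (16) match symbols and synonyms; words that caught unrelated genes were trimmed after matching. The naming rule took the 10 largest falls with 1 gene, up to 4 members per list, the 5 highest and 5 lowest changes with sucrose among members with 1 gene, probe sets at the threshold, those the sucrose rule left out, and the 3 largest falls without a single gene. Names come from the platform annotation, matched to RefSeq's TAIR10.1 gene table (113 of 244 members, 46.3%); a check of gene length or GC content is void at that coverage.

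Models were fitted with limma (3.58.1, under R 4.3.3), the 6 arrays sharing 1 variance estimate with an intensity trend (eBayes); p-values were two-sided and adjusted by Benjamini-Hochberg over the 15922 probe sets, with a threshold of 0.05. The fit was also run on simulated data. These had normal noise, no floor and no array of poor RNA, so nothing is read from them about these 6 arrays. Pairing comes from the titles, which place an array of each group in experiment 1 and another in experiment 2; differences between experiments correlated across probe sets at r = 0.562 between anoxia with sucrose and anoxia, 0.392 between anoxia with sucrose and air, and 0.383 between anoxia and air. The fit without the block was fixed as the main one. Alternatives were other pseudocounts, filters and thresholds, quantile normalization, no trend, the block, and leaving out arrays.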

Additional observations from a re-analysis of the deposited data

How the results depend on the processing

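The number of members, 244, moved with several choices: 377 met the rule with a pseudocount of 1 and 121 with 64 (231 and 117 of them shared with the 244), 89 with a threshold of -1.5 and 955 with -0.5, and 553 or 840 when a single experiment was asked. With no filter all 244 stayed among 250, with the filter at the 50th percentile 202 stayed, and with quantile normalization 235 stayed among 282. Members were picked for low values on the anoxia arrays, so a median change with sucrose above 0 was favoured in advance. The median of 0.15 became 0.26 and 0.13 with pseudocounts of 1 and 64. It was 0.14 with the 50th percentile, 0.23 with the threshold of -1.5 and 0.19 with the left-out probe sets kept in. For members with 1 gene it was 0.0856, and for those with both anoxia signals at or above 16 it was 0.10. It was 0.0392 to 0.31 leaving out 1 array, lowest without the sucrose array of experiment 2 and highest without that of experiment 1, fits that mix the experiments. Chosen in experiment 1 or 2 and read in the other it was 0.0048 and 0.046, where all probe sets had 0.07 and -0.05. Against air the median of -1.498 became -1.83 with the threshold of -1.5, and -0.42 and -0.88 when chosen in experiment 1 or 2 and read in the other. Leaving out 1 array gave -1.69 to -1.31. The 139 members below -1 with sucrose became 216 and 66 with pseudocounts of 1 and 64, 73 with the threshold of -1.5, and 215 counted below -0.5, and 165 in experiment 2 and 197 in experiment 1 taken alone.

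Counts by limma moved widely. For anoxia with sucrose against air 40 became 14 and 99 with pseudocounts of 1 and 64, 118 with no filter, 22 with quantile normalization, 20 without the trend, 527 with the replicate block, and 0 to 71 leaving out 1 array (0 without either air array, with 731 or 1033 at an unadjusted p under 0.05). For anoxia against air 37 became 2 and 82, 88, 23, 14 and 404 in the same order, and 0 to 81 leaving out 1 array (0 without either anoxia array, with 502 or 862 at an unadjusted p under 0.05). For anoxia with sucrose against anoxia 0 stayed 0 except for 3 with the block. Of 36 named genes, all 36 kept the direction of anoxia minus air with both other pseudocounts and with quantile normalization; that of the change with sucrose was kept in 35, 35 and 32. Dropping an array for the rule itself was replaced by asking 1 experiment alone, chosen after seeing the data.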
